A study of Homo sapiens with 12 samples.

Results

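The 77 genes described here encode proteins of the cytosolic ribosome. They are the rows of a table of 57500 genes whose symbol is RPL or RPS followed by a number (with A or X where the symbol has one), or RPLP0, RPLP1, RPLP2 or RPSA, and whose mean was at least 50 counts over 12 libraries. All 77 rows with such a symbol reached that mean, so the filter removed none. By their symbols 46 encode proteins of the large subunit and 31 proteins of the small subunit. FAU, which encodes a ribosomal protein fused to a ubiquitin-like protein, and RACK1, a scaffold protein of the small subunit, carry other names and are described near the end. The symbol alone thus set membership, and no level or fold change chose a single member. The family itself was chosen with earlier results of these data known.

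The study sequenced total RNA of HCC1806 and MDA-MB-468, established cell lines of triple-negative breast cancer, a tumour class that lacks estrogen and progesterone receptors and HER2 amplification. Its title concerns PACT, a double-stranded RNA binding protein encoded by PRKRA, as a suppressor of the kinase PKR. HCC1806 cells carried the control guide sgC1 or the PRKRA guide sgPACT-2, and MDA-MB-468 cells carried the control guide sgNTA or the same sgPACT-2, with 3 libraries in each of these 4 groups. Whether each line was a pool or 1 clone, how long the guide had been present and whether the 3 libraries came from separate cultures are not given in the sources used here. The p-values therefore measure the spread between these libraries, which may be technical.

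Ribosomes are built from rRNA and equal numbers of most ribosomal proteins, so cells make these proteins in matched amounts, and most are essential for growth. The mRNAs of this family are among the most abundant of a proliferating cell. Most start with a 5′ terminal oligopyrimidine tract (TOP), a C followed by a run of C and U, through which the mTOR pathway and the protein LARP1 control their translation. When eIF2alpha is phosphorylated by PKR or related kinases, translation initiation falls across most mRNAs; the libraries here measured mRNA, not translation.

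The first bases of the transcripts show what the members have in common. RefSeq start sites (GRCh38.p14) were matched by symbol for 62 of the 77 members, and 15 had no entry in the table used. A TOP start, taken as C at the listed first base and at least 4 more C or T without a break, was present for 46 of the 62 (74.2%), against 5.14% of 27305 genes in the same table. The unbroken runs were 5 to 19 bases long with a median of 8. The windows below cover 10 bases before and 20 bases from the start, 5′ to 3′, with the C/T run that begins at the start base in capitals. RPL7A, RPL29 and RPSA are shown because they were the members called lower with the PACT guide in HCC1806. RPL10, RPS16 and RPS19 had the largest differences between the lines. RPL39 has the longest run, and RPS4X and RPS26 have no TOP start in the table. For RPL10 and RPS19, which have several listed starts, the one with the run is shown.
RPL7A, chr9:133348208-133348237, plus strand: attccctttcCTTTCTCTCTCCTCCCgccg
RPL29, chr3:51995876-51995905, minus strand: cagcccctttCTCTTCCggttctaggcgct
RPSA, chr3:39406710-39406739, plus strand: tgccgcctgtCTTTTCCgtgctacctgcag
RPL10, chrX:154398367-154398396, plus strand: ggaggagcgcCTCTTTCCCTTCggtgtggt
RPS16, chr19:39435930-39435959, minus strand: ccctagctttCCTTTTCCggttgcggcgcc
RPS19, chr19:41860245-41860274, plus strand: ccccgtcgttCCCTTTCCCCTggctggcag
RPL39, chrX:119791611-119791640, minus strand: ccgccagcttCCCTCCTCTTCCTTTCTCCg
RPS4X, chrX:72277229-72277258, minus strand: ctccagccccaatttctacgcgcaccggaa
RPS26, chr12:56041908-56041937, plus strand: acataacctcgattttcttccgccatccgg

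The table also gave 300 bases around each start (250 before and 50 after), which were searched on both strands for 4 short motifs. The ETS-type motif CCGGAAG occurred in 35.5% of the 62 members and 12.2% of all genes, and the motif AAGATGG, part of the YY1 site, in 12.9% and 7.11%. The GC box GGGCGG occurred in 58.1% and 48.3%, and TATAAA in 8.06% and 14.0%. These are matches of letters and not binding sites.

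Library depth ranged from 18640633 to 24704877 counts for HCC1806, and the MDA-MB-468 libraries were deeper at 34581754 to 44790741. The mitochondrially encoded share was 11.6% to 15.0% for HCC1806, against 6.31% to 8.90% for MDA-MB-468. All 8 epithelial markers passed the filter on low counts, with summed levels of 2703 to 4158 TMM-scaled CPM (counts relative to the scaled library size) in HCC1806, against 13061 to 14733 for MDA-MB-468. Of the immune markers CD14 reached 98.7 ± 8.87 CPM in MDA-MB-468 controls (SD, n = 3) against 1.66 ± 0.325 in HCC1806 controls. Of the receptors that the tumour class lacks, PGR had a mean of 1.5 counts and was not tested, ESR1 measured 20.9 ± 1.81 CPM in HCC1806 and 6.67 ± 0.410 in MDA-MB-468 controls, and ERBB2 (HER2) 194 ± 14.2 and 139.8 ± 5.02. Fibroblast and endothelial markers summed to 17.2 to 53.8 and 1.42 to 4.02 CPM over the 12 libraries. CD3E was too low to be tested, and PTPRC, the pan-leukocyte marker, had a mean of 8.25 counts. The targeted transcript PRKRA measured 78.6, 82.6 and 72.1 CPM in the HCC1806 sgC1 libraries and 37.5, 36.1 and 37.3 in the sgPACT-2 libraries. The groups did not overlap, and edgeR gave -1.07 as the log2 change (SE 0.10, with an adjusted p-value of 1.7e-05). In MDA-MB-468 it measured 41.1, 45.9 and 46.9 CPM with sgNTA and 39.2, 35.5 and 41.6 with sgPACT-2, and the fold change of -0.20 did not pass (edgeR adjusted p-value 0.958). A guide can disrupt a protein and leave its transcript in place. Protein was not analysed here, and depletion in MDA-MB-468 rests on the label.

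The 77 genes together took a small share of the counts. In the HCC1806 sgC1 libraries the share was 1.70%, 1.96% and 1.96%, and in the sgPACT-2 libraries 1.66%, 1.71% and 1.87%. The MDA-MB-468 shares were 2.31%, 2.26% and 2.30% with sgNTA and 2.39%, 2.17% and 2.11% with sgPACT-2. As shares of all counts, every MDA-MB-468 library thus lay above every HCC1806 library, while the guide groups overlapped within each line. Group means were 1.87% ± 0.147 and 1.75% ± 0.112 for HCC1806, with 2.29% ± 0.0292 and 2.22% ± 0.148 in MDA-MB-468 (SD, n = 3 each). With mitochondrially encoded genes left out of the total, the means became 2.17% and 2.01% for HCC1806, with 2.49% and 2.39% for MDA-MB-468. The lines then overlapped, with HCC1806 sgC1 replicate 3 at 2.288% and MDA-MB-468 sgPACT-2 replicate 3 at 2.283%. Near-identical pseudogenes can take reads of these genes. The 1148 pseudogene rows named after a member held 2.11% of the members' counts, and for RPL17, RPL36A and RPL23A they came to 25.7%, 22.5% and 20.6% of the member's own mean count, so these 3 genes are uncertain.

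Levels of different genes were compared as CPM per kilobase, using the median length of each gene's complete protein-coding transcripts in GENCODE 29 (359 to 2317 bases). The levels of the 77 genes spread over a wide range. Among the highest in HCC1806 controls were RPS2, at 1403 ± 167 CPM per kilobase (SD, n = 3), and RPS18, at 844 ± 79.3. RPL8 at 598 ± 46.1 and RPL13A at 571 ± 49.6 were lower and did not differ beyond their spread. In MDA-MB-468 controls RPS18 was highest at 1452 ± 63.3 CPM per kilobase. RPS2 stood at 1045 ± 19.9 and RPL13A at 998 ± 13.8, and they differed by more than the sum of their SDs. RPL10 was within the spread of RPL13A in MDA-MB-468, at 992 ± 13.4 CPM per kilobase, against 159 ± 5.06 in HCC1806.

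At the low end the order was shared in part. RPL36A was lowest in both lines, at 18.1 ± 1.41 CPM per kilobase in HCC1806 and 37.8 ± 0.888 in MDA-MB-468 controls, followed by RPL17 at 26.8 ± 3.59 and 51.7 ± 3.60. Both are among the members whose reads pseudogenes may share. RPL22, RPS26 and RPL30 were next in HCC1806, at 50.4 ± 2.33, 52.8 ± 3.72 and 54.9 ± 0.990, and neighbours in this order did not differ beyond their spread. In MDA-MB-468 RPL35A (56.5 ± 3.70), RPL30 (68.7 ± 10.4) and RPL22 (69.3 ± 0.952) stood there. Over the 77 genes the log2 levels of the control groups had a Pearson correlation of 0.77 and a Spearman correlation of 0.68, a description across genes that share their libraries and lengths. Annotated lengths of several members vary between transcripts, so these ranks are approximate.

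The first guide comparison asked how the family responded in HCC1806. The family as a whole stood slightly below its controls with the PACT guide, although few members passed the test one by one. The median log2 fold change was -0.20, a fall of 12.7%, against 0.01 over all 27029 genes tested and -0.03 over the 15918 tested genes averaging 50 counts or more. The value was negative for 75 of 77 members and for all 31 of the small subunit. Summed over the family, the level was 16948, 17761 and 18383 CPM in the sgC1 libraries and 15140, 14935 and 15454 CPM in the sgPACT-2 libraries. The highest library with the PACT guide lay below the lowest control. These are bulk samples, in which fewer cells of a type and less RNA per cell cannot be told apart, and CPM are shares of each library.

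Only 3 of the 77 passed edgeR's quasi-likelihood test after adjustment over all genes (adjusted p-value under 0.05), all 3 lower. Over all genes 2.49% were called, 1.32% lower and 1.16% higher. The members' 3.90% is near the 3.95% of tested genes averaging 50 counts or more, of which 2.22% were called lower. Without adjustment 33 members had a p-value under 0.05, every one lower, against 14.5% of all genes in either direction. The CPM of the 3 control and 3 PACT libraries did not overlap for 44 members, all lower (57.1%), where 8.17% of all genes were lower and 8.51% higher without overlap. Whether replicate numbers pair the HCC1806 libraries is not certain. With the number as a block 14 members were called lower, against 4.61% of all genes. With HCC1806 fitted alone 0 were called (0.0383% of genes called lower), and with DESeq2 9 (4.57%). Leaving out single HCC1806 libraries gave 1 call without control replicate 1, 0 without control replicate 2 or PACT replicate 2, and 9 without PACT replicate 1. The 1 call without control replicate 1 was RPS2, which was not among the 3 of the main fit. The count was also 0 without MDA-MB-468 control replicate 1, 2 or 3 or PACT replicate 3, which enter through the shared estimate of spread. With library size in place of TMM the median was -0.07 and 0 members were called. The median of all genes moved from 0.01 to 0.13. A change of scaling shifts all genes by nearly the same amount. The members' distance from all genes, -0.20 under both scalings, could therefore hardly change and is no test of the result.

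Among large subunit proteins RPL7A (ENSG00000148303, chromosome 9, 133348214 to 133351426, plus strand, GRCh38), which hosts 4 snoRNAs in its introns, was lower. It measured 366, 360.3 and 363 CPM in the sgC1 libraries and 273, 281 and 282 in the sgPACT-2 libraries. The groups stood well apart, each within a narrow range. It fell by 0.38 on the log2 scale (SE 0.09, adjusted p-value 0.0324). RPL29 (ENSG00000162244, chromosome 3, 51993522 to 51995942, minus strand), a surface protein of the large subunit, measured 165, 172 and 158 CPM against 116, 127 and 127. It fell by 0.42 on the log2 scale (SE 0.10, adjusted p-value 0.0356), the most negative value of the 77. RPL10 (ENSG00000147403, chromosome X, 154389955 to 154409168, plus strand), which joins the large subunit late in its assembly near the peptidyl transferase centre, measured 280.2, 267 and 284 CPM against 242, 202 and 194, without overlap. Its change of -0.38 (SE 0.10) had an adjusted p-value of 0.0637 and passed with the replicate block (0.00783) and with DESeq2 (0.0204).

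Other large subunit members with textbook roles moved less. RPL5 and RPL11, which bind 5S rRNA and in free form inhibit MDM2, had changes of -0.22 and -0.11 with adjusted p-values of 0.276 and 0.810. RPL5 measured 213, 204 and 187 CPM with sgC1 and 174, 165 and 179.6 with sgPACT-2, without overlap. RPL11 measured 118, 142 and 163 CPM with sgC1 and 138, 123 and 131 with sgPACT-2, and its groups overlapped. RPL23, another MDM2-binding protein, had a change of -0.15 with an adjusted p-value of 0.647. RPLP0, the base of the stalk that recruits elongation factors, measured 495, 524 and 568 CPM with sgC1 and 444, 416 and 456 with sgPACT-2. Its change of -0.27 had an adjusted p-value of 0.170 and 0.0444 with the block. The stalk proteins RPLP1 and RPLP2, which bind RPLP0, had -0.16 and -0.09, and both overlapped between groups. RPL41, a very short peptide, had -0.31 with an adjusted p-value of 0.154, and 0.0323 with the block. RPL22 had -0.16, RPL38, linked to selective translation of Hox mRNAs, -0.07, and RPL39, which lines the exit tunnel, -0.24.

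Of the small subunit proteins RPSA (ENSG00000168028, chromosome 3, 39406689 to 39412542, plus strand), also known as the laminin receptor precursor, was called lower. It measured 409, 416 and 429 CPM with sgC1 and 304, 307 and 334 with sgPACT-2. All 3 PACT libraries lay below all 3 controls, and it fell by 0.41 on the log2 scale (SE 0.10, adjusted p-value 0.0360). Adding the counts of pseudogenes named after each member left RPL7A called and ended the calls of RPSA (0.0554) and RPL29 (0.0775). RPS3A, next in order, measured 273, 258 and 228 CPM with sgC1 against 177, 198 and 214 with sgPACT-2, with a change of -0.36 and an adjusted p-value of 0.0774 (0.0272 with the block). RPS2, which is methylated by PRMT3, measured 1174, 1351 and 1492 CPM with sgC1 against 985, 1006 and 1139.6, with a change of -0.36 and an adjusted p-value of 0.102 (0.00819 with the block). RPS6, the substrate of S6 kinase, had -0.25, RPS3, a protein of the mRNA entry channel, -0.21, RPS27A, made as a ubiquitin fusion, -0.18, and RPS4X -0.26, none past the threshold. RPS19, the gene most often mutated in Diamond-Blackfan anemia, had -0.05 and overlapped between groups.

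In both members with positive values the same library was the highest. RPL36A measured 11.8, 12.0 and 13.6 CPM with sgC1 and 16.8, 11.8 and 11.8 with sgPACT-2. RPL18 measured 98.3, 102 and 114 CPM with sgC1 and 131, 94.1 and 98.0 with sgPACT-2. In each the first PACT library was the highest of the 6 and the other two lay at or below the low end of the control range. Their fold changes were 0.10 and 0.04, with adjusted p-values of 0.839 and 0.945.

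**Figure D1:**
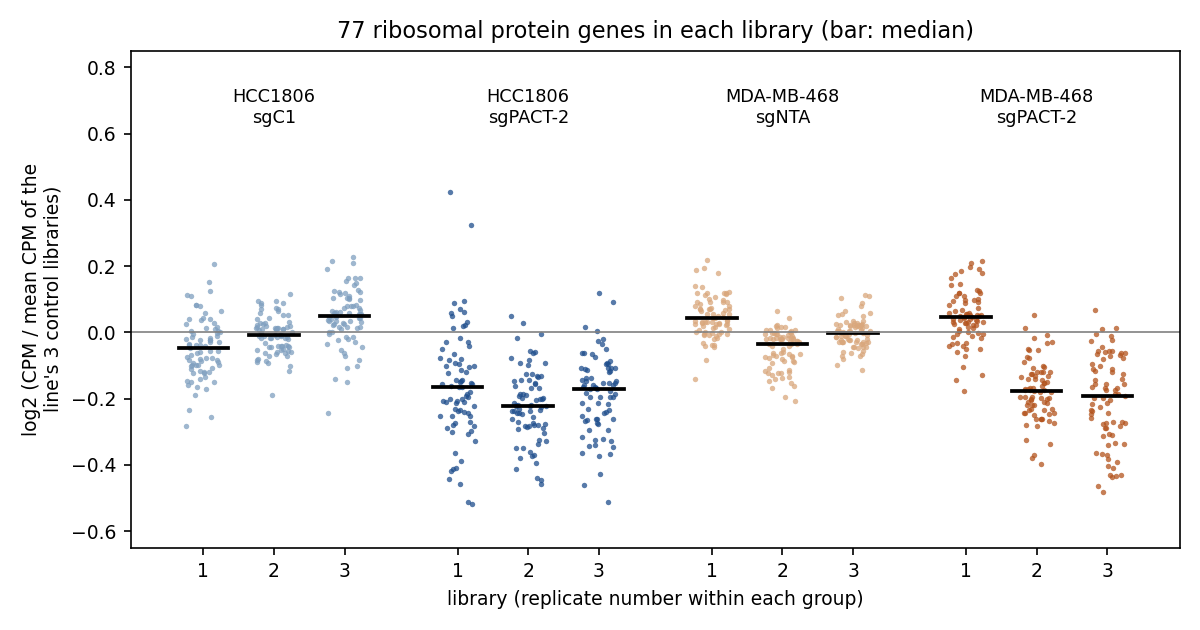
Each point is 1 of 77 ribosomal protein genes in 1 library, as log2 of its CPM over the mean CPM of the 3 control libraries of its line (y axis), by library (x axis); the bar is the median of the 77. The 3 HCC1806 sgPACT-2 libraries have medians of -0.17, -0.22 and -0.17, and those of MDA-MB-468 have 0.05, -0.18 and -0.19.

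The plot of deviations by library uses TMM scaling, with which 65, 75 and 73 of the 77 members lay below the control mean in HCC1806 PACT replicates 1, 2 and 3. The control libraries themselves had medians of -0.05, -0.01 and 0.05. Scaled by library size alone, 60, 65 and 31 members lay below it in the PACT libraries, with medians of -0.12, -0.11 and 0.03. On that scale control replicate 1 had 69 members below and a median of -0.12, so the libraries of both guides overlapped. Mitochondrial shares overlapped between these groups, at 12.4% to 14.5% with sgC1 and 11.6% to 15.0% with sgPACT-2. Epithelial markers moved with the guide in this line. Their sum was 3698 to 4158 CPM with sgC1 and 2703 to 3000 with sgPACT-2 (range of 3 libraries each). KRT5 (-0.92), EPCAM (-0.55) and CDH1 (-0.38) were called lower, 3 of 8. In the other direction 1 of the 8 had a positive value (0.51), which was not called. The part of these markers in the result was not tested.

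The same comparison in MDA-MB-468 gave no call. The median of the 77 genes was -0.12 against -0.01 over all genes, and 71 of 77 values were negative. None was called by edgeR, where 0.17% of all genes were called and 0% lower, and DESeq2 called 0 members and 0.484% of genes. With MDA-MB-468 fitted alone 0 members were called, where 1.51% of genes were, 259 higher and 64 lower. The common coefficient of variation between libraries that edgeR estimated was 0.094 in that fit. It was 0.204 with HCC1806 alone and 0.171 in the fit of all libraries, which the lines share. Without adjustment 2 members had a p-value under 0.05, against 5.27% of all genes. The 3 control and 3 PACT libraries did not overlap for 7 members, all lower (9.09%), close to the 6.94% over all genes, and none was higher, where 6.2% of genes were. These 7 were RPL22, RPL23A, RPL34, RPL36A, RPLP1, RPS13 and RPS24, named after their values were seen.

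The libraries with the PACT guide were not alike in this line. Replicate 1 had a median of 0.05, with 19 of 77 members below the control mean, while replicates 2 and 3 had -0.18 and -0.19 with 75 and 74 below. Summed levels were 26366, 25131 and 25680 CPM in the sgNTA libraries and 26917, 22574 and 23105 with sgPACT-2. Replicate 1 was above all controls, and the other two were below all controls. This library also had the lowest mitochondrial share of the 12, 6.31%, against 7.36% to 8.90% in the other MDA-MB-468 libraries, and the part of that difference in the result was not tested. Without it the median was -0.19 and all 77 values were negative, with 0 called. Without PACT replicate 2 or 3 the median was -0.06.

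Single members illustrate the spread. RPL34, a large subunit protein, measured 87.7, 86.1 and 87.2 CPM with sgNTA and 78.8, 66.0 and 71.5 with sgPACT-2, the clearest separation in this line. Its change of -0.27 (SE 0.09) had an unadjusted p-value of 0.00985 and an adjusted p-value of 0.646. RPS24, a small subunit protein also mutated in Diamond-Blackfan anemia, measured 129, 118 and 115 CPM with sgNTA and 110.3, 103 and 87.4 with sgPACT-2, with a change of -0.27 and an adjusted p-value of 0.919. RPL23 and RPS28 followed, with -0.24 and -0.21. The 4 highest values were RPL12 (0.05), RPS23 (0.03), RPS6 (0.01) and RPL4 (0.01), each with an unadjusted p-value well above the threshold. The 3 genes called in HCC1806 were spread more widely here. RPL7A measured 610.4, 597 and 587 CPM with sgNTA and 622, 522 and 526 with sgPACT-2. RPL29 measured 417, 409 and 403 CPM with sgNTA and 439, 339 and 389.5 with sgPACT-2. RPSA measured 488, 508 and 505 CPM with sgNTA and 536, 422 and 525 with sgPACT-2. In these 3 genes PACT replicate 1 was above every control and replicate 2 below every control.

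The interaction asked whether the responses of the lines differed. None of the 77 passed, where 0.122% of all genes did, and DESeq2 called 0 members and 0.955% of genes. Without adjustment 4 members had a p-value under 0.05, against 8.39% of all genes. RPSA had the largest difference, 0.39 (MDA-MB-468 minus HCC1806, SE 0.14, unadjusted 95% interval 0.10 to 0.68, adjusted p-value 0.423). RPL29 (0.34), RPS3A (0.32) and RPL7A (0.28) followed. In the other direction RPL36A had -0.22, RPS27 -0.19, RPS21 -0.19 and RPL18 -0.17. The median difference was 0.08 with TMM, 0.01 with library size and -0.0020 without MDA-MB-468 PACT replicate 1. Over the 77 genes the 2 sets of fold changes, which come from separate libraries, had a Pearson correlation of -0.21 and a Spearman correlation of -0.23, given as a description. RPSA, RPL29 and RPL7A, lowest in HCC1806, had -0.02, -0.07 and -0.10 in MDA-MB-468.

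**Figure D2:**
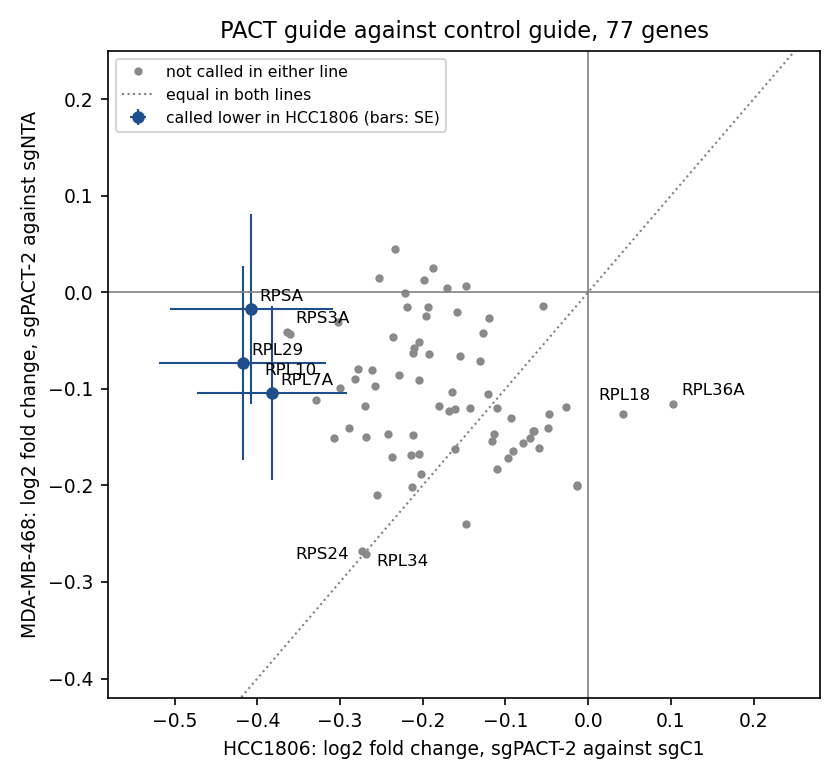
Each point is 1 of 77 ribosomal protein genes, with its log2 fold change for sgPACT-2 against sgC1 in HCC1806 (x axis) and against sgNTA in MDA-MB-468 (y axis); bars are SE, drawn for the 3 genes called in HCC1806. Most points lie at negative values on both axes, 75 of 77 for HCC1806 against 71 of 77 for MDA-MB-468, and they do not follow the dotted line of equal change.

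Fold changes were also set beside properties of the genes. Over the 77 genes, the fold change and the log2 mean CPM in the 6 libraries of the same line had a Pearson correlation of -0.45 in HCC1806 and 0.31 in MDA-MB-468, both as descriptions of genes that share libraries. The 38 members above the median level in HCC1806 had a median fold change of -0.21 there, and the other 39 had -0.16. In MDA-MB-468, split by levels in that line, these were -0.08 and -0.15. Large and small subunit members had the same HCC1806 median, -0.20 each. Those with a TOP start (46) and those without one listed (16) had medians of -0.18 and -0.20. The 28 members that hold snoRNAs, 60 in all, had -0.18 and the other 49 had -0.20. Members with pseudogene counts above 2% of their own (25) had -0.21 and the others -0.19. The 29 members that overlap a gene on the opposite strand, whose reads may be included because the strand setting is not given in the sources used here, had -0.18, and the other 48 had -0.21. The values of the compared classes overlapped widely.

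The lines were then compared through their control groups, MDA-MB-468 with sgNTA minus HCC1806 with sgC1, in which line and control guide cannot be told apart. Here the members went in different directions. The test called 66 of 77 members, 54 higher and 12 lower in MDA-MB-468, where 74.2% of all genes were called, 34.2% higher and 40.1% lower. The members' 85.7% is near the 82.2% of genes averaging 50 counts or more. By direction, 70.1% of the members were called higher and 15.6% lower, against 48.8% and 33.3% of those genes. The members' median was 0.47, and the quartiles were 0.09 and 0.95. The median was -0.26 over all genes, 0.30 over tested genes averaging 50 counts or more and 0.34 over tested protein-coding genes. The split of calls depended on the scaling. It was 38 higher and 17 lower with library size, 36 and 19 when TMM used genes averaging 50 counts or more, 34 and 20 with protein-coding genes, and 61 and 8 after removal of GC and length trends.

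At the high end stood proteins of both subunits. RPL10 measured 1728, 1714 and 1759.6 CPM in the MDA-MB-468 controls and 280.2, 267 and 284 in the HCC1806 controls, a log2 difference of 2.65 (SE 0.11, adjusted p-value 7.3e-13). RPS16 (ENSG00000105193, chromosome 19, 39433207 to 39435948, minus strand), a small subunit protein near the decoding site, measured 584, 520.3 and 554 CPM against 89.1, 97.4 and 99.7. Its difference was 2.53 (SE 0.10). RPS19 measured 348, 316 and 332 CPM against 56.0, 62.5 and 70.6, a difference of 2.40. In all 3 the lowest MDA-MB-468 library was several times above the highest HCC1806 library. RPS4X (1.77), RPS6 (1.65), RPS7 (1.63) and RPL39 (1.44) were also called higher. RPL5, with 513, 506 and 519 CPM against 213, 204 and 187, was higher by 1.35, while its 5S partner RPL11 had 0.28 with an adjusted p-value of 0.0707.

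At the low end RPL27A (-0.96), RPLP1 (-0.89), RPL35A (-0.74), RPLP2 (-0.65), RPS24 (-0.59), RPL21 (-0.55) and RPL8 (-0.45) were called lower; RPLP2, RPL21 and RPL8 turned positive after removal of GC and length trends. RPLP1 measured 79.8, 78.0 and 76.7 CPM against 143, 145 and 148, and RPLP2 87.1, 70.1 and 83.5 against 103, 127 and 147. Both were lower, while RPLP0, to which they bind, measured 504, 490.4 and 497 against 495, 524 and 568 and did not pass (-0.09, adjusted p-value 0.400). The libraries of the lines did not overlap for 54 members that were higher and 12 that were lower, with 35.8% and 41.8% of all genes in those classes. The difference of RPL17 was 0.95 and 0.02 with pseudogene counts added, and that of RPL36A 1.06 and 0.58. CD14 was higher in MDA-MB-468 by 5.89. Immune markers, most of whose sum there was CD14, came to 89.6 to 107 CPM in its controls and 4.12 to 6.09 in HCC1806 controls. Of the 3 immune markers tested 1 was called higher and 1 lower, with a median of -0.30. The part of CD14 in these differences was not tested.

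**Figure D3:**
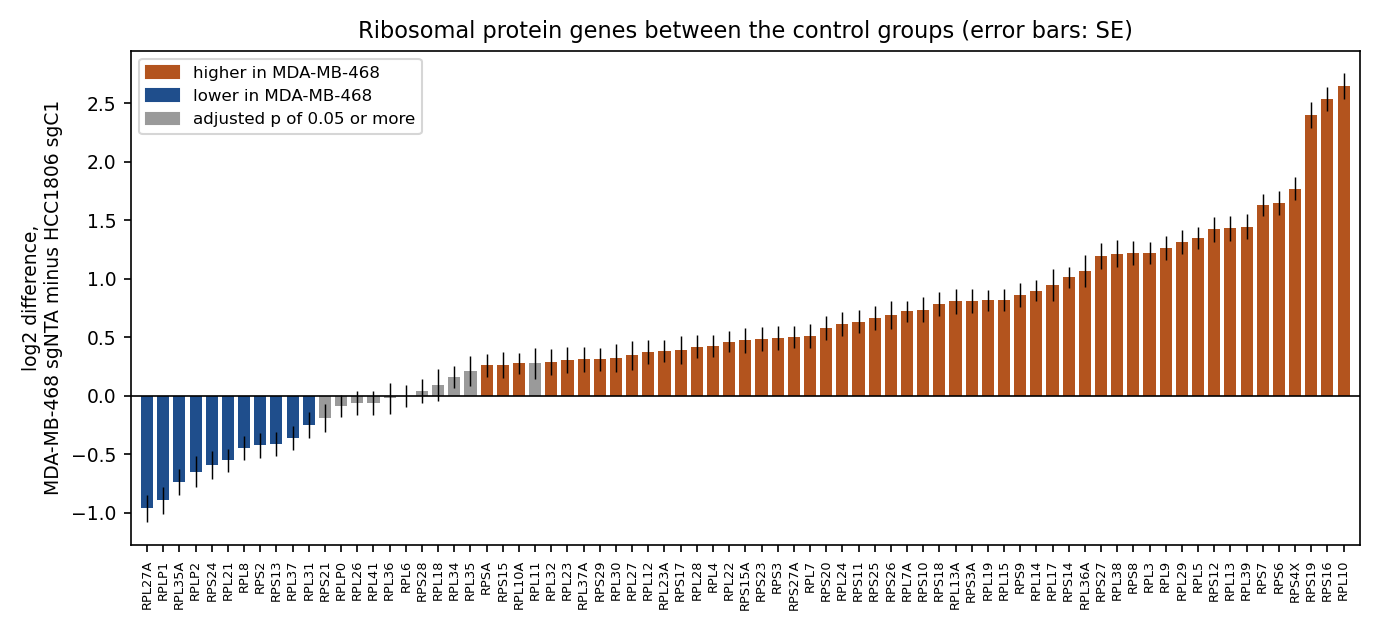
Bars give the log2 difference between the MDA-MB-468 sgNTA and HCC1806 sgC1 groups for 75 of the 77 genes, in order of size, with SE as error bars; colours mark genes called higher (53), called lower (11) and not called (11). The bars run from -0.96 for RPL27A to 2.65 for RPL10.

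**Figure D4:**
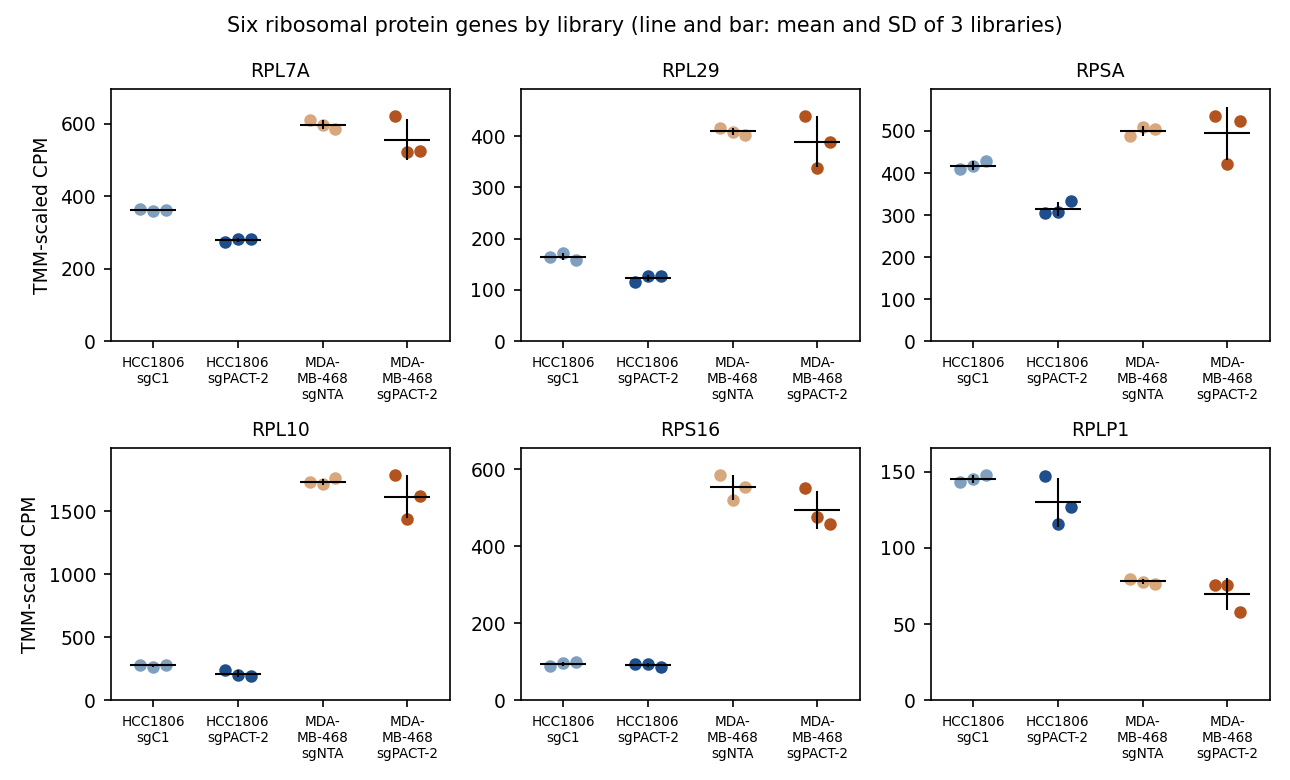
TMM-scaled CPM (y axis, from 0) of RPL7A, RPL29, RPSA, RPL10, RPS16 and RPLP1 in the 3 libraries of each group, as points, with mean and SD. The HCC1806 sgPACT-2 points lie below the sgC1 points for RPL7A, RPL29, RPSA and RPL10, and RPLP1 is the only one of the 6 that is lower in MDA-MB-468.

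Position in the genome went with the size of the line difference, a comparison added after the values were seen. All 4 X-linked members, RPL10, RPS4X, RPL39 and RPL36A (1.06), were called higher in MDA-MB-468, and the 474 tested X-linked genes averaging 50 counts or more had a median of 1.30. For each member the other such genes within 1 Mb were taken, 5 to 76 of them with a median of 21. Over the 77 members the difference of the member and the median of its neighbours had a Pearson correlation of 0.71 and a Spearman correlation of 0.65, and their signs were the same for 55. Neighbours had medians of 1.93 around RPL10, 2.03 around RPS16 and 1.86 around RPS19. Around RPL35A and RPS24 they had -1.24 and -1.37. The 11 members with a neighbour median above 1 were all positive with a median of 1.31, the 34 between 0 and 1 had a median of 0.68, and the 32 below 0 had 0.15. RPL22 was an exception, at 0.46 among neighbours with a median of -1.58. For the guide effect no such relation appeared, with correlations of -0.06 in HCC1806 and 0.11 in MDA-MB-468. Members that lie close together share neighbours, and DNA copy number was not analysed here.

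**Figure D5:**
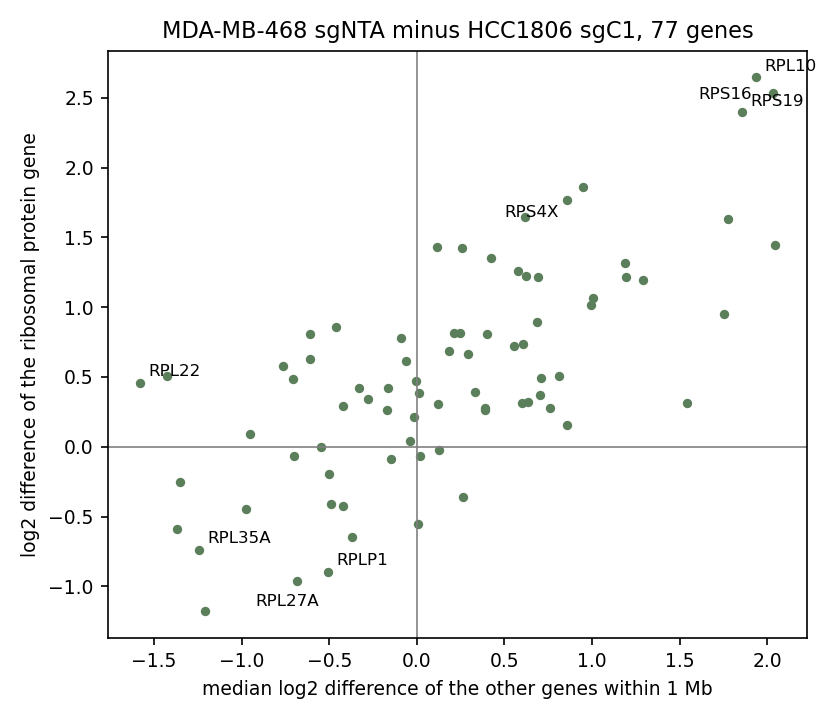
Each point is 1 of 77 ribosomal protein genes, with the median log2 difference (MDA-MB-468 sgNTA minus HCC1806 sgC1) of the other genes within 1 Mb on the x axis and its own difference on the y axis. RPL10, RPS16 and RPS19 sit at the upper right and RPL35A at the lower left, and the Pearson correlation over the 77 points is 0.71.

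Genes outside the symbol rule were read from lists of related genes. FAU had -0.17 in HCC1806 and did not pass (adjusted p-value 0.606). It was called higher in MDA-MB-468 than in HCC1806, by 1.48. Of 8 paralogues of members 7 were tested and 0 were called for either guide comparison by edgeR, with 0 at an unadjusted p-value under 0.05. RPL10L was too low to be tested. In HCC1806 the values were -0.67 for RPL3L, -0.28 for RPL26L1, -0.15 for RPS27L, -0.10 for RPL39L, -0.09 for RPL7L1, -0.05 for RPL22L1 and -0.03 for RPL36AL. Between the lines RPL26L1 (2.43), RPL7L1 (2.30), RPL36AL (1.05) and RPS27L (0.78) were higher and RPL3L (-3.58) lower.

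The list of 18 other TOP mRNAs, mostly translation factors, had a median of -0.16 in HCC1806 with 16 negative values, and 2 were called lower. These 2 are 11.1% of a short list, against 2.22% of tested genes averaging 50 counts or more. EEF1A1, the factor that brings aminoacyl-tRNA to the ribosome, measured 3004, 3106 and 2794 CPM with sgC1 and 2098, 2265 and 2252 with sgPACT-2. It fell by 0.43 (SE 0.09, edgeR adjusted p-value 0.0183). PABPC1, the poly(A)-binding protein, measured 1433, 1389 and 1429 CPM with sgC1 against 1096, 1090.5 and 1147 with sgPACT-2 and fell by 0.35 (edgeR adjusted p-value 0.0396). BTF3, a subunit of the nascent chain complex, had -0.35 with an adjusted p-value of 0.0603, and 0.0129 with the block. With HCC1806 fitted alone EEF1A1 and PABPC1 did not pass (0.210 and 0.275). RACK1 had -0.21, EEF2 -0.14 and TPT1 -0.08. In MDA-MB-468 the median of the list was -0.06 with 0 called and 0 at an unadjusted p-value under 0.05.

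Proteins of the mitochondrial ribosome, a separate machine that translates mitochondrially encoded mRNAs, came to 77 genes as well. Their median was -0.15 in HCC1806, with 67 negative and 2 called lower, and -0.07 in MDA-MB-468 with 0 called by edgeR and 0 at an unadjusted p-value under 0.05. MRPL11 measured 39.9, 34.6 and 37.9 CPM with sgC1 and 30.9, 25.4 and 21.9 with sgPACT-2 and fell by 0.53 (SE 0.12, edgeR adjusted p-value 0.0322). MRPL50 fell by 0.65 (edgeR adjusted p-value 0.0467). MRPL30 had -0.41 with an adjusted p-value of 0.109, and 0.0277 with the block. In MDA-MB-468 MRPL46 (-0.33), MRPS14 (-0.24) and MRPS26 (-0.21) had the smallest p-values of the list, none past the threshold. Between the lines this list was higher in MDA-MB-468, with a median of 1.05 and 61 called higher and 6 lower (79.2% and 7.79%). Of tested genes averaging 50 counts or more 48.8% were called higher and 33.3% lower, with a median of 0.30.

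The 36 genes of ribosome biogenesis, which make and process rRNA and assemble subunits, stood near 0. Their medians were -0.05 in HCC1806 and 0.01 in MDA-MB-468, and edgeR called 0 in either line, with 3 and 0 at an unadjusted p-value under 0.05. WDR12 (-0.34), the RNA polymerase I factor RRN3 (0.26) and the rRNA methyltransferase FBL (-0.27) had the smallest p-values in HCC1806, and NOB1 (0.19), RIOK1 (0.18) and LTV1 (0.18) in MDA-MB-468. Among 28 regulators and ribosome surveillance genes 1 was called in HCC1806 (3.57%, against 3.95% of tested genes averaging 50 counts or more). CDKN1A, the cell cycle inhibitor p21, measured 40.3, 40.2 and 25.0 CPM with sgC1 and 82.3, 66.8 and 61.5 with sgPACT-2 in HCC1806 and rose by 1.00 (edgeR adjusted p-value 0.00446). Fitted within HCC1806 only, its adjusted p-value was 0.0623. ZNF598, a sensor of collided ribosomes, had 0.35 with an adjusted p-value of 0.220, and 0.0467 with the block. LARP1, the TOP-binding protein, had -0.18 in HCC1806 and -0.07 in MDA-MB-468. In MDA-MB-468 the list's smallest p-values belonged to MAP3K20 (0.29), ASCC3 (0.16) and LARP1B (0.17), with 0 called by edgeR and 1 at an unadjusted p-value under 0.05.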

How the data were processed

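RNA-seq of 12 libraries, 3 in each of 4 groups, was analysed from the deposited table of counts per gene. Per the labels' protocols total RNA was DNase treated, depleted of rRNA (QIAseq FastSelect) and made into libraries with a NEBNext Ultra II kit. Per the submitters' processing notes the authors used Trimmomatic 0.36, STAR 2.5.2b, featureCounts and Subread 1.5.2 with GRCh38. The annotation release, strand setting and treatment of multi-mapping reads are not given in the sources used here. Rows without a gene name held 0.0284% of counts and were kept in the library totals and, where they passed the filter, in the tests.

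Counts were tested with edgeR 4.0.16 in R 4.3.3 (filterByExpr, TMM scaling, 1 coefficient per group, quasi-likelihood test, two-sided, Benjamini-Hochberg adjustment over 27029 genes, adjusted p-value under 0.05), checked on simulated data. CPM are TMM-scaled. Log2 fold changes are those of the fit, and non-overlap compares CPM of 3 and 3 libraries. Alternatives were DESeq2 1.42.0, other scalings and filters, each line alone, a replicate block, added pseudogene counts, removal of GC and length trends (lowess, span 0.3) and each library left out. Protein-coding genes only, the block with the trend removal, and shares with other totals were added after seeing the data. Replicate numbers are in the labels. In HCC1806 the deviations of same-numbered libraries correlated (r = 0.479, 0.294 and 0.152), but control 2 and PACT 3 had 0.351. The pairing is therefore uncertain, and the block is given only as an alternative. Genes were named by rule: PRKRA, up to 8 called members a direction with the largest change (or, below 4 calls, the 4 with the smallest p), members with textbook roles, the 5 highest and 5 lowest by level, all paralogues, and 3 genes with the smallest p of each other list. Some genes that the rule names are not reported here. The members and lists were chosen with earlier results of these data known. Library totals were 18640633 to 44790741 counts, and the intervals given come from the fit.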

Additional observations from a re-analysis of the deposited data

Results flagged for a closer look

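The response of PRKRA, the gene the guide targets, differed between the lines. The log2 change of -1.07 for HCC1806 stood against -0.20 for MDA-MB-468, a difference of 0.87 by the interaction term of the edgeR fit (SE 0.14, adjusted p-value 0.0198). None of the 77 ribosomal protein genes passed that term.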

How the results depend on the processing

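The number of ribosomal protein genes called in HCC1806 (3 lower) depended on the processing, while their median kept its sign under every alternative run. The count was 0 with library size scaling, 0 with the line alone, 0 at an adjusted p-value under 0.01, 1 with pseudogene counts added, 6 without a filter, 9 with DESeq2, 14 with the replicate block, 17 with the block and removal of GC and length trends, and 0 to 9 when 1 library was left out. With library size scaling the HCC1806 median was -0.074 and 56 members were negative, against 75. In MDA-MB-468 the same-number correlations were weak (r = 0.116, 0.0750 and 0.106), though above those of all other pairs (at most 0.0037). The block called 0 there and 0 in the interaction, as did every other alternative run. Between the lines the median of 0.47 became 0.22 with library size, 0.16 with genes of a mean of at least 50 counts, 0.12 with protein-coding genes, 0.38 with pseudogene counts added, 0.71 with GC and length trends removed and 0.71 with the block as well. The share of counts was 2.17%, 2.01%, 2.49% and 2.39% (HCC1806 control and PACT, MDA-MB-468 control and PACT) without mitochondrial genes, and 2.32% in MDA-MB-468 controls with pseudogenes. The cause was not tested.

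Between the lines 18 members had negative values, and 32 with protein-coding genes, 30 with the minimum of 50, 22 with library size and 10 with GC and length trends removed. Among named genes called before or after the change, line differences that changed sign were those of NOB1 (-0.037), RPL23 (-0.053), RPL30 (-0.033), RPL34 (-0.20), RPS28 (-0.32) and RPSA (-0.10) with protein-coding genes only, and of RPL23 (-0.0079), RPS28 (-0.27) and RPSA (-0.052) with genes of a mean of at least 50 counts. With GC and length trends removed, and with the block as well, these were RPL21 (0.30 and 0.30), RPL41 (0.92 and 0.93), RPL8 (0.26 and 0.26), RPLP2 (0.26 and 0.26) and RPS21 (0.46 and 0.46). The cause was not tested. Each line alone gives no value for the interaction or the line difference. Over the 76 named genes, 6639 values under the alternatives kept direction and side of the threshold, 122 no longer passed, 96 newly passed, 268 changed sign with neither value past the threshold and 19 with at least 1 past it. Depth limits RPL36A most, with a mean of 592 counts.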
